A study of Mus musculus with 8 samples.

Results

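The cytosolic ribosomal protein genes were measured in EGFP-positive gut cells of Bapx1 null and wildtype mouse embryos at E12.5. They were chosen by symbol alone, as every gene of the platform annotation whose name opens with Rpl or Rps followed by a number, a stalk letter p or an a, leaving out the Rps6k kinases and names marked as pseudogenes. This gave 65 genes with 96 probes, of 19057 named genes and 45281 probes on the Illumina MouseWG-6 v2 array. Of these, 58 genes with 83 probes passed the filter on dim probes, which asks for a detection p under 0.01 on at least 4 of the 8 arrays, against 9784 genes and 17440 probes in all. The rule also took Rps19bp1 and Rps23rg1, whose products are named after a ribosomal protein and are not part of the ribosome.

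The study compared sorted cells of the 2 genotypes to find genes that depend on Bapx1 (Nkx3-2), a homeobox transcription factor of the gut mesenchyme, spleen primordium and axial skeleton. In the 4 Bapx1 null samples (tm4.Tlu/tm4.Tlu) the EGFP gene was inserted behind the start codon on both alleles and replaced the product. In the 4 wildtype samples (+/tm2.Tlu) EGFP followed an internal ribosome entry site in the 3' untranslated region of a single targeted allele that still makes Bapx1, so the number of EGFP alleles differed between the genotypes as well. All embryos were of mixed C57BL/6J;129 background and untreated, EGFP was driven by the Bapx1 promoter in both lines, and the cells came from dissected gut by fluorescence-activated sorting. How many embryos went into each sample is not stated in the sources used here.

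Ribosomal proteins build the large (Rpl) and small (Rps) subunits of the cytosolic ribosome, together with ribosomal RNA. Most are needed in equal number, their genes are active in every cell, and their mRNAs are among the most abundant of a growing embryo. Many of these mRNAs open with a run of pyrimidines that begins with C, the 5' terminal oligopyrimidine (TOP) motif, through which the growth kinase mTORC1 and the RNA-binding protein Larp1 set how much of them is translated. Loss of a single ribosomal protein gene copy is known to give specific defects, such as anaemia in human carriers of RPS19 or RPS26 variants, skeletal patterning defects in Rpl38 mutant mice, and absence of the spleen in human carriers of RPSA variants.

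The annotated transcription starts of 6 small subunit genes whose signals are given array by array further on are shown. The TOP run begins at the start of the mRNA. Each line gives 30 bases of the transcribed strand in RefSeq assembly GRCm38.p6, with 10 bases before the annotated start and 20 from it on, and capitals mark the pyrimidine run where one was found.
Rps3a1, chr3:86142649-86142678, minus strand: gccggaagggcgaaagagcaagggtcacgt
Rps6, chr4:86857348-86857377, minus strand: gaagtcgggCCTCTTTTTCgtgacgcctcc
Rps7, chr12:28635934-28635963, minus strand: cggtttccacccacctacttccgctgtccc
Rps15a, chr7:118116128-118116157, minus strand: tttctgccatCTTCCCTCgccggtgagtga
Rps26, chr10:128626487-128626516, minus strand: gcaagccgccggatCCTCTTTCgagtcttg
Rps15, chr10:80292421-80292450, plus strand: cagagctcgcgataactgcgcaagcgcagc

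A run was counted when at least 6 bases in a row were C or T, the first was C, and that first base lay within 5 bases of the start on the transcribed strand. It opened 1 base before the start in Rps6, at base 1 in Rps15a and at base 5 in Rps26, and was 10, 8 and 8 bases long. No such run lay in the windows of Rps3a1, Rps7 and Rps15. Start sites could be matched for 48 of the 58 members, with 57 annotated windows, and 21 of these (36.8%) held a run, against 3352 of 32851 windows (10.2%) over all genes of the table. Not matched were Rps29, Rpl3, Rpl21, Rplp1, Rps4l, Rpl30, Rpl32, Rps20, Rps14 and Rpl29. The sequence CCGGAAG, a core that ETS-family factors bind, was searched on both strands of the 300 bases around each start. It lay in 21 of the members' windows (36.8%), Rps3a1, Rps6, Rps7 and Rps26 among them, against 8.86% of all windows. The first 5 bases of its reverse form (CTTCC) can also be part of a pyrimidine run. Among the printed genes a run was thus found in Rps6 and Rps15a, with a negative difference between Bapx1 null and wildtype. It was also found in Rps26, with a positive difference, and was not found in Rps3a1 and Rps7 (negative) or Rps15 (positive). Annotated starts were not set against mapped ones, so that a run not found here does not show an mRNA without the TOP motif.

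Signal over background differed between the genotypes. Detected probes made up 36.3%, 31.0%, 36.4% and 38.5% of Bapx1 null replicates 1 to 4 and 38.2% to 40.0% of the wildtype arrays, and Bapx1 null arrays correlated with each other at 0.923 to 0.983, against 0.985 to 0.990 within wildtype. Both Bapx1 probes were detected on the 4 Bapx1 null arrays and on 0 wildtype arrays. Where these probes lie in the transcript was not analysed here, and they did not check the genotype labels. Genes of other cell types differed as well: the mean normalized log2 signal of the platelet markers was 5.28 to 5.96 in Bapx1 null and 7.32 to 9.75 in wildtype (4 of 4 measured genes lower at an adjusted p under 0.05 by limma, of which Ppbp was detected on 0 Bapx1 null arrays and was kept through wildtype alone), and those of hepatocytes (0 of 5 passing, Alb at background) 5.09 to 6.22 and 6.23 to 10.84, of erythroid cells (1 of 3 passing, lower, with Alas2 and Ermap at background) 5.37 to 7.14 and 7.25 to 8.78, and of leukocytes (2 of 5 passing, lower, of which Ctss was detected on 0 Bapx1 null arrays and was kept through wildtype alone, and Ptprc at background) 5.1 to 6.3 and 6.53 to 7.6. The gut epithelium markers (0 of 4 passing, Epcam at background) averaged 6.53 to 6.8 in Bapx1 null and 6.96 to 8.07 in wildtype, and the endothelium markers (0 of 3 passing, Kdr and Tie1 at background) 5.01 to 6.12 and 5.63 to 6.76. The smooth muscle markers averaged 10.29 to 10.58 in Bapx1 null and 8.63 to 9.55 in wildtype (1 of 5 passing, higher, Cnn1 at background), and the gut mesenchyme markers, such as Foxf1 and Nkx2-3, were detected in both genotypes at 10.21 to 10.53 and 10.03 to 10.47 (0 of 6 passing). The part of these cell types in the ribosomal protein values was not tested, and in sorted bulk samples fewer cells of a type and less RNA per cell cannot be told apart.

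Ribosomal protein probes were among the brightest of the array. By mean raw intensity 22 of them stood among the 100 brightest probes and 50 among the 1000 brightest, 79 of the 96 were detected on all 8 arrays, and 46 of the 58 genes fell among the 979 brightest genes. This ranks fluorescence and not amounts of RNA, since probes differ in how they bind. The 3 brightest genes were Rpl41, Rps29 and Rplp1, whose mean raw intensities over the 8 arrays were 33300, 31100 and 28000. The 3 dimmest that were kept were Rpl7a, Rps19bp1 and Rps20, with 184, 192 and 194. Other probes of bright genes were at background, such as the second probe of Rplp2 and the dimmest probe of Rpl37, which were detected on 0 arrays. No probe was kept for Rpl17, Rpl39l, Rpl3l, Rpl6, Rps23, Rps23rg1 and Rpsa. Rpsa, the gene linked to absent spleen in human carriers, had raw intensities of 69.2, 69.4, 71.1 and 101.8 in Bapx1 null and 90.8, 84.9, 72.6 and 78.7 in wildtype on its brighter probe, which was detected on 1 array, so that its mRNA could not be compared here. The same holds for Rpl6 and Rps23, subunit proteins that every ribosome carries, whose probes were detected on 0 arrays.

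Before normalization, the median of the set was lower on Bapx1 null replicates 1 to 3 than on any wildtype array, and lowest on replicate 2. The median raw intensity of the 58 genes was 8895, 3858, 9931 and 13274 on Bapx1 null replicates 1 to 4, against 13014, 11310, 10533 and 11287 on wildtype replicates 1 to 4. Only Bapx1 null replicate 2 stood far below the others, and it was also the array with the fewest detected probes. As a share of all fluorescence, background included, the set had similar means in both genotypes and varied more in Bapx1 null. The 96 probes held 4.01%, 3.68%, 4.45% and 4.31% of the summed raw intensity on the Bapx1 null arrays and 3.92%, 4.12%, 4.12% and 4.07% on the wildtype arrays. These shares averaged 4.11% ± 0.342 (SD, n = 4) in Bapx1 null and 4.06% ± 0.0931 (SD, n = 4) in wildtype, and the genotypes overlapped.

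No ribosomal protein gene passed the threshold between the genotypes. After background correction and quantile normalization, 0 of the 58 genes differed at an adjusted p under 0.05 (limma, Benjamini-Hochberg over all 9784 genes), where 77 of all genes did (0.787%), and the lowest adjusted p of a member was 0.119. At an unadjusted p under 0.05 by limma there were 7 members (12.1%), against 27% of all genes. Of these 5 were higher in Bapx1 null, where 17.2% of all genes were, and 2 were lower, where 9.73% of all genes were. The 4 arrays of each genotype did not overlap for 6 members (10.3%), against 18.6% of all genes. Rpl19, Rps15, Rps26 and Rps19bp1 were the 4 higher in Bapx1 null (12.2% of all genes), and Rps15a and Rps13 the 2 lower (6.36% of all genes). The shares at an unadjusted p and without overlap thus lay below those of all genes tested, both drawn from the same arrays. With 58 members, a count of 0 at the adjusted threshold is near the share of 0.787%. By probe the counts were 0 of 83 at an adjusted p under 0.05 (0.47% of all probes), 11 at an unadjusted p under 0.05 (13.3%, against 25.8% of all probes) and 11 without overlap (13.3%, against 17.1%).

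The differences were small and fell on both sides of zero. The median of the 58 differences, Bapx1 null minus wildtype, was -0.06 on the log2 scale (range -0.95 to 0.63) with 26 genes above zero and 32 below, and the median over all genes tested was 0.07. For 55 of the 58 genes (94.8%) the difference lay within 0.5 on the log2 scale, as it did for 77.2% of all genes. For 54 (93.1%) the whole 95% interval lay within 1, against 77.8% of all genes, and the exceptions were Rpl21, Rpl22l1, Rps3a1 and Rps6. The interval reached a median of 0.32 to either side of the difference for the members and 0.41 for all genes. A smaller difference than this could not be told from zero for a typical member. Larger ones could still fall short of the adjusted threshold, such as Rps26 at 0.49 (limma, adjusted p = 0.119). The 31 genes of the large subunit, stalk included, had a median difference of -0.02, the 21 of the small subunit -0.09 and the 5 paralogs -0.16.

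**Figure D1:**
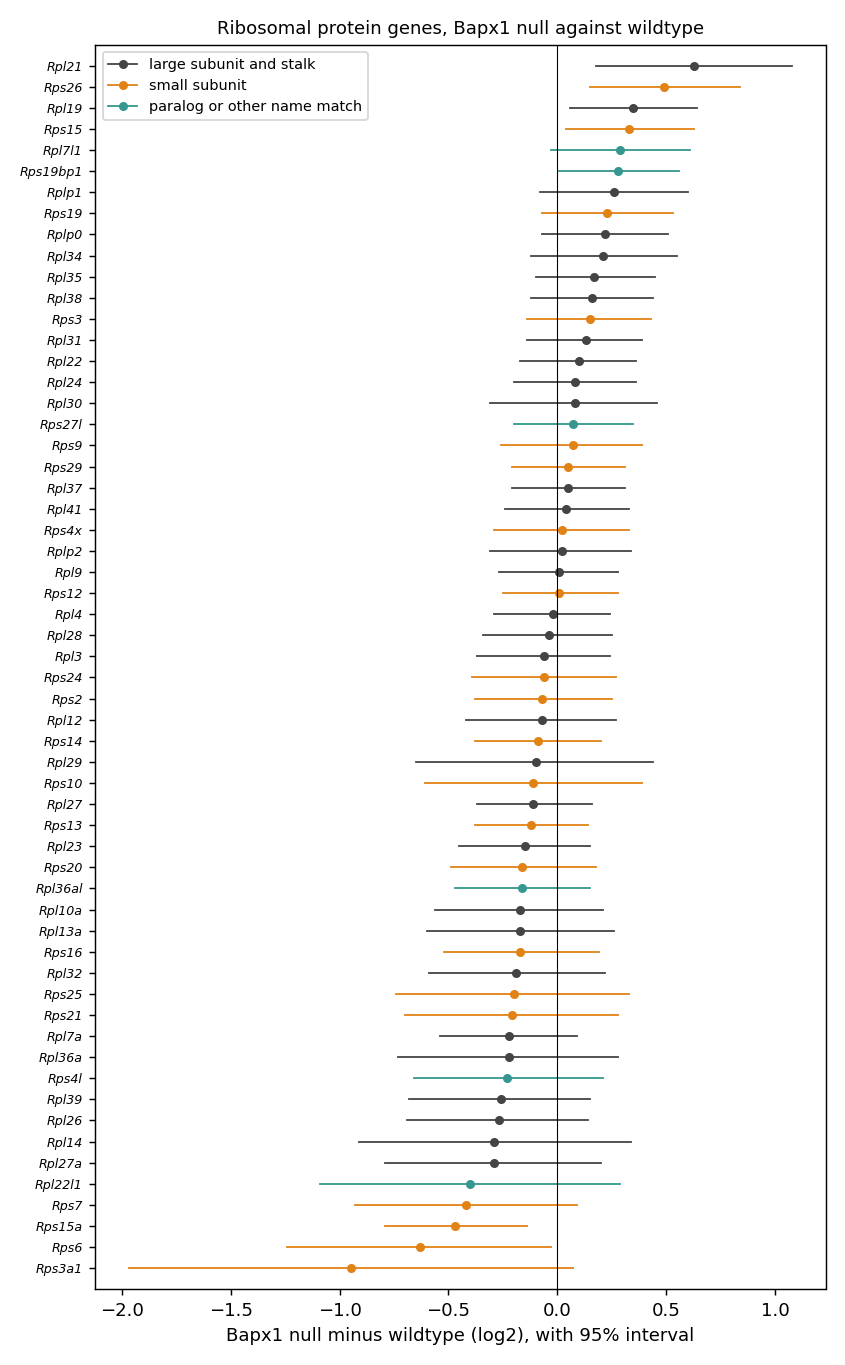
Log2 difference of each of the 58 ribosomal protein genes, Bapx1 null minus wildtype (points, with the 95% interval of the limma model as lines, n = 4 arrays per genotype), coloured by subunit. The points run from 0.63 for Rpl21 to -0.95 for Rps3a1, and 55 of 58 lie within 0.5 of zero.

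Among the small subunit genes, the lowest differences were those of Rps3a1, Rps6, Rps15a and Rps7, all 4 of which were positive with arrays scaled by median and median absolute deviation (MAD), where the median of all genes was 1.05. The normalized log2 signal of Rps3a1, a protein of the small subunit platform, was 11.73, 9.68, 11.52 and 12.32 in Bapx1 null replicates 1 to 4, against 12.39, 12.25, 12.23 and 12.19 in wildtype. The 4 wildtype arrays lay within a narrow band, Bapx1 null replicate 2 stood far below it and replicate 4 inside it. The difference was -0.95 ± 0.46 (SE), short of the threshold at an adjusted p of 0.206 by limma, and without Bapx1 null replicate 2 it was -0.41. Rps6, the substrate of the S6 kinases downstream of mTORC1, had 12.39, 11.33, 11.65 and 12.69 in Bapx1 null and 12.55, 12.73, 12.60 and 12.70 in wildtype. Again replicates 2 and 3 of Bapx1 null were low while replicate 4 matched wildtype. The difference of -0.63 ± 0.27 (SE) gave an adjusted p of 0.174 by limma, and it was -0.11 without Bapx1 null replicates 2 and 3. Rps7, mutations of which activate p53 and affect the skeleton in mice, showed the same order of arrays, with 11.63, 10.84, 11.29 and 12.02 in Bapx1 null and 11.78, 12.02, 11.79 and 11.88 in wildtype. Its difference was -0.42 ± 0.23 (SE; limma, adjusted p = 0.247).

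Rps15a differed from these in that no array overlapped. Its signal was 9.35, 9.27, 9.11 and 8.84 in Bapx1 null, against 9.59, 9.50, 9.74 and 9.61 in wildtype, and here replicate 4 of Bapx1 null was the lowest. The difference was -0.47 ± 0.15 (SE), a fold of 1.38 in favour of wildtype, at an adjusted p of 0.119 by limma. The percentage of detected probes of each array nearly followed the genotype, so that as a covariate its part cannot be told apart from that of genotype. With this covariate in the model, Rps15a differed by -0.63, Rps3a1 by 0.27, Rps7 by 0.07 and Rps6 by -0.07. Rps13 also did not overlap, with 13.00, 12.98, 12.86 and 13.05 in Bapx1 null and 13.06, 13.06, 13.09 and 13.18 in wildtype, yet its difference was only -0.12 ± 0.12 (SE; limma, adjusted p = 0.493). Rps19bp1, whose product binds Rps19 and acts on the deacetylase Sirt1, had 7.39, 7.47, 7.48 and 7.18 in Bapx1 null and 7.06, 7.12, 7.15 and 7.05 in wildtype. Its genotypes were close to each other but did not overlap, at a difference of 0.28 (95% interval 0.01 to 0.56).

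On the other side were Rps26 and Rps15. Rps26, a protein at the mRNA exit channel and one of the genes of human Diamond-Blackfan anaemia, had 14.32, 14.73, 14.42 and 14.17 in Bapx1 null and 13.80, 13.85, 14.11 and 13.90 in wildtype. Every Bapx1 null array lay above every wildtype array, though replicate 4 of Bapx1 null and replicate 3 of wildtype came within a small step of each other. The difference was 0.49 ± 0.15 (SE), or 1.41-fold, with an adjusted p of 0.119 by limma. Its raw intensities overlapped between the genotypes, and across the alternatives its difference ran from 0.16 to 4.02. Rps15 had 11.76, 11.97, 11.89 and 11.76 in Bapx1 null and 11.38, 11.41, 11.71 and 11.54 in wildtype, a difference of 0.33 ± 0.13 (SE; limma, adjusted p = 0.152), and without normalization its difference was -0.02. Rps19, the gene most often affected in Diamond-Blackfan anaemia, averaged 14.25 ± 0.16 (SD, n = 4) in Bapx1 null and 14.02 ± 0.12 (SD, n = 4) in wildtype, and Rps20, whose mouse mutants have dark skin, 7.10 ± 0.25 and 7.26 ± 0.06. Both differences, 0.23 and -0.16, had 95% intervals that included zero (-0.07 to 0.53 and -0.49 to 0.18).

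Without Bapx1 null replicate 4, a setting in which 1245 of all genes passed, 3 members did: Rpl21 at 0.80 (limma, adjusted p = 0.0383), Rps26 at 0.57 (adjusted p = 0.047) and Rps6 at -0.86 (adjusted p = 0.0468). Under the other alternatives run, 0 members passed at the gene level.

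**Figure D2:**
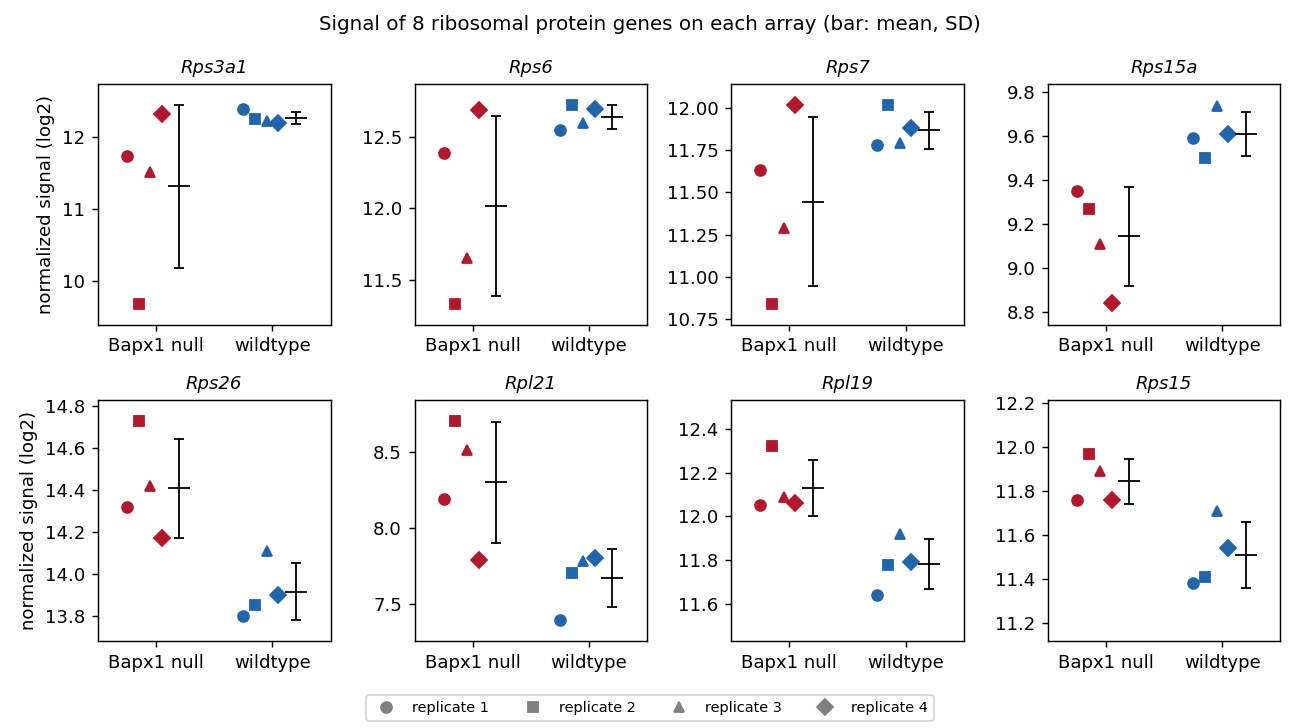
Normalized log2 signal of 8 ribosomal protein genes on each of the 8 arrays, Bapx1 null left and wildtype right, with marker shape giving the replicate number and bars the mean and SD (n = 4 each). Each panel has its own vertical axis, and Bapx1 null replicate 2 is the lowest point for Rps3a1, Rps6 and Rps7 and the highest for Rps26, Rpl21, Rpl19 and Rps15.

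Of the large subunit, Rpl21 had the highest difference. Its signal was 8.19, 8.70, 8.51 and 7.79 in Bapx1 null and 7.39, 7.70, 7.78 and 7.80 in wildtype. Bapx1 null replicate 4 fell within the wildtype range and the other 3 Bapx1 null arrays above it. The difference of 0.63 ± 0.20 (SE), or 1.55-fold, had an adjusted p of 0.121 by limma, and the other 2 kept probes of Rpl21 gave 0.22 and 0.27. Across the alternatives the difference of Rpl21 ran from 0.02 to 1.42. Rpl19 had 12.05, 12.32, 12.09 and 12.06 in Bapx1 null and 11.64, 11.78, 11.92 and 11.79 in wildtype. All Bapx1 null arrays were higher after normalization, at a difference of 0.35 ± 0.13 (SE; limma, adjusted p = 0.141). The raw intensities overlapped, with 4034, 2957, 4586 and 4910 in Bapx1 null and 4365, 3861, 3804 and 4159 in wildtype. Across the alternatives the difference of Rpl19 ran from 0.0029 to 2.96. Rpl41, the brightest of the set and the gene of a very short basic peptide, had 14.96, 14.88, 15.03 and 15.23 in Bapx1 null and 15.07, 14.96, 14.96 and 14.93 in wildtype, and the arrays were mixed. Its difference was 0.04, with a 95% interval of -0.24 to 0.33.

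Rpl38 and Rpl24, known from the mouse mutants Tail short and Belly spot and tail, were of interest because both affect the axial skeleton. Rpl38 had 14.61, 14.71, 14.82 and 14.48 in Bapx1 null and 14.43, 14.49, 14.49 and 14.56 in wildtype. The ranges overlapped through Bapx1 null replicate 4, and the difference was 0.16 (95% interval -0.12 to 0.44). Rpl24 had 8.74, 8.58, 8.46 and 8.42 in Bapx1 null and 8.45, 8.54, 8.43 and 8.45 in wildtype, with a difference of 0.08 (-0.20 to 0.36). Neither gene differed by as much as 0.5 within these intervals. Rpl3 (-0.06), Rpl29 (-0.10), Rpl36a (-0.22), Rpl7a (-0.22) and Rpl39 (-0.26) had negative differences with intervals that included zero, and the last of them, Rpl39 of the peptide exit tunnel, had 13.88, 13.62, 14.32 and 14.46 in Bapx1 null, against 14.35, 14.37, 14.29 and 14.34 in wildtype.

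The acidic stalk recruits the elongation factors to the ribosome and is built from Rplp0, Rplp1 and Rplp2. Rplp1 had 15.03, 15.11, 14.67 and 14.67 in Bapx1 null and 14.50, 14.56, 14.55 and 14.80 in wildtype, a difference of 0.26 ± 0.15 (SE; limma, adjusted p = 0.269). The genotypes overlapped, since wildtype replicate 4 lay above Bapx1 null replicates 3 and 4. Rplp2 had 13.93, 13.60, 14.08 and 14.02 in Bapx1 null and 14.01, 13.99, 13.79 and 13.78 in wildtype, a difference of 0.02 ± 0.15 (SE). The brighter probe of Rplp0 gave 10.56, 10.66, 10.61 and 10.39 in Bapx1 null and 10.14, 10.41, 10.34 and 10.45 in wildtype, a difference of 0.22 ± 0.13 (SE; limma, adjusted p = 0.28).

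Several ribosomal protein genes have a second copy, in some cases with a product that can take the place of the first. Rpl22l1, which Rpl22 holds down in mouse cells, had 10.01, 9.07, 10.33 and 10.81 in Bapx1 null and 10.61, 10.49, 10.37 and 10.34 in wildtype, so that Bapx1 null both undershot and overshot the wildtype band. Its difference was -0.40 ± 0.31 (SE), with a 95% interval of -1.09 to 0.29, and that of Rpl22 was 0.10 (-0.17 to 0.36). Rps27l, a p53 target in human cells, averaged 13.00 ± 0.15 (SD, n = 4) in Bapx1 null and 12.92 ± 0.04 (SD, n = 4) in wildtype. Rpl7l1 had 10.18, 10.18, 9.87 and 9.90 in Bapx1 null, against 9.71, 9.54, 9.90 and 9.82 in wildtype, and its difference of 0.29 did not pass (limma, adjusted p = 0.21). Rps4l, whose probe is annotated to a non-coding RefSeq transcript, had 8.42, 8.54, 7.81 and 7.87 in Bapx1 null and 8.52, 8.25, 8.55 and 8.24 in wildtype. Replicates 3 and 4 of Bapx1 null lay below the wildtype range, while Rps4x, the X-linked gene of the pair, differed by 0.02. Rpl36al differed by -0.16 and Rpl36a by -0.22. The muscle paralog Rpl3l and the testis paralog Rpl39l were detected on 0 arrays, at mean raw intensities of 48.8 and 46.0 in Bapx1 null, against 49.6 and 51.0 in wildtype. Ribosomal protein genes have many processed pseudogenes, and whether a probe also binds their transcripts was not analysed here.

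Probes of a single gene did not always give the same difference. Of 18 genes with several kept probes, 11 had all probes on one side of zero and 13 had a spread under 0.5 on the log2 scale, with a median spread of 0.35. The widest spread was that of Rplp0. Its dimmer probe (ILMN_1249815) had raw intensities of 164, 57, 76 and 116 in Bapx1 null and 493, 475, 355 and 271 in wildtype, while the brighter one (ILMN_2744356) had 1433, 832, 1608 and 1614 in Bapx1 null and 1632, 1561, 1339 and 1711 in wildtype. The dim probe was lower on every Bapx1 null array and was detected on 2 of the 4 Bapx1 null arrays and all 4 wildtype arrays. After normalization its difference was -2.16 ± 0.39 (SE), against 0.22 for the bright probe, and it fell just short of the threshold among the 17440 probes (limma, adjusted p = 0.0534). It passed in 8 of the 23 alternatives in which it was fitted, with differences from -2.62 to -1.46 and adjusted p from 0.0165 to 0.347.

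The next widest spreads were those of Rpl29 and Rps13, where the lower difference was again on the dimmer probe. The dimmer probe of Rpl29 gave a normalized signal of 9.52, 4.42, 6.92 and 9.59 in Bapx1 null and 9.33, 9.48, 9.41 and 7.97 in wildtype, a difference of -1.44 ± 1.02 (SE; limma, adjusted p = 0.36), against -0.10 for the bright probe. Bapx1 null replicates 1 and 4 lay just above the wildtype range, and replicate 2 was at background. The dimmer probe of Rps13 had 6.73, 5.08, 7.16 and 6.74 in Bapx1 null and 7.31, 7.15, 7.36 and 7.53 in wildtype, a difference of -0.91 ± 0.38 (SE; limma, adjusted p = 0.179). The 3 kept probes of Rps24 gave -0.51, 0.18 and -0.06, and for Rpl28 the dimmer probe gave the higher value, 0.51 against -0.04 for the brighter one. Probe positions in the transcripts were not analysed here, so that isoforms and the distance from the 3' end could not be set beside these differences.

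**Figure D3:**
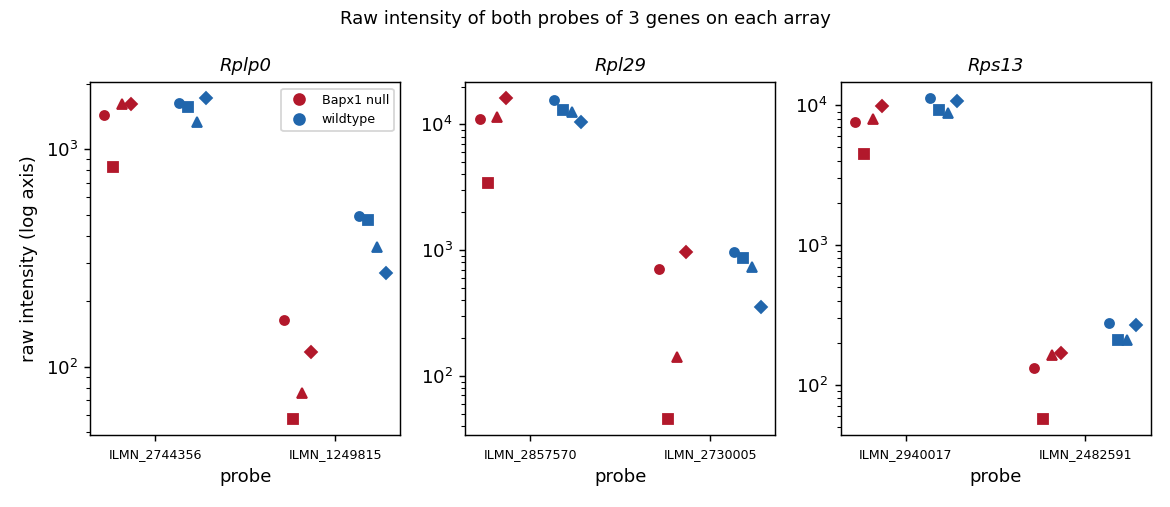
Raw intensity (log axis) of both kept probes of Rplp0, Rpl29 and Rps13 on each array, Bapx1 null in red and wildtype in blue, with circles, squares, triangles and diamonds for replicates 1 to 4. The bright probe of each pair overlaps between the genotypes, and for Rplp0 the 4 Bapx1 null points of the dim probe, 57 to 164, lie below the 4 wildtype points, 271 to 493.

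The Bapx1 null arrays varied more among themselves than the wildtype arrays did. The SD of a member within its genotype had a median of 0.22 in Bapx1 null and 0.08 in wildtype, and was lower in wildtype for 54 of the 58 genes. The same held over all genes, with medians of 0.33 and 0.14. Set against the wildtype mean of each gene, the median deviation of the 58 genes was 0.00, -0.14, 0.09 and 0.07 on Bapx1 null replicates 1 to 4 and -0.03 to 0.01 on the wildtype arrays. The spread around these medians was wide on Bapx1 null replicate 2, where 34 genes lay below the range of the 4 wildtype arrays and 19 above it, and 21 of 58 deviated by more than 0.5. On Bapx1 null replicate 1 the counts were 23 below and 24 above, with 2 beyond 0.5, on replicate 3 they were 17 and 28, with 8 beyond 0.5, and on replicate 4 they were 8 and 26, with 2 beyond 0.5. Below the wildtype range lay 39.7%, 58.6%, 29.3% and 13.8% of the members on Bapx1 null replicates 1 to 4, against 25.2%, 34.6%, 31.1% and 24.2% of all genes. Above it lay 41.4%, 32.8%, 48.3% and 44.8% of the members, against 37.3%, 50%, 47.3% and 28.0% of all genes. The share of members below the range was highest on replicate 2, the Bapx1 null array with the fewest detected probes, and lowest on replicate 4, which had the most. The part of array brightness in these deviations was not tested. The covariate given above cannot tell it apart from genotype, since the percentage of detected probes nearly followed the genotype.

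**Figure D4:**
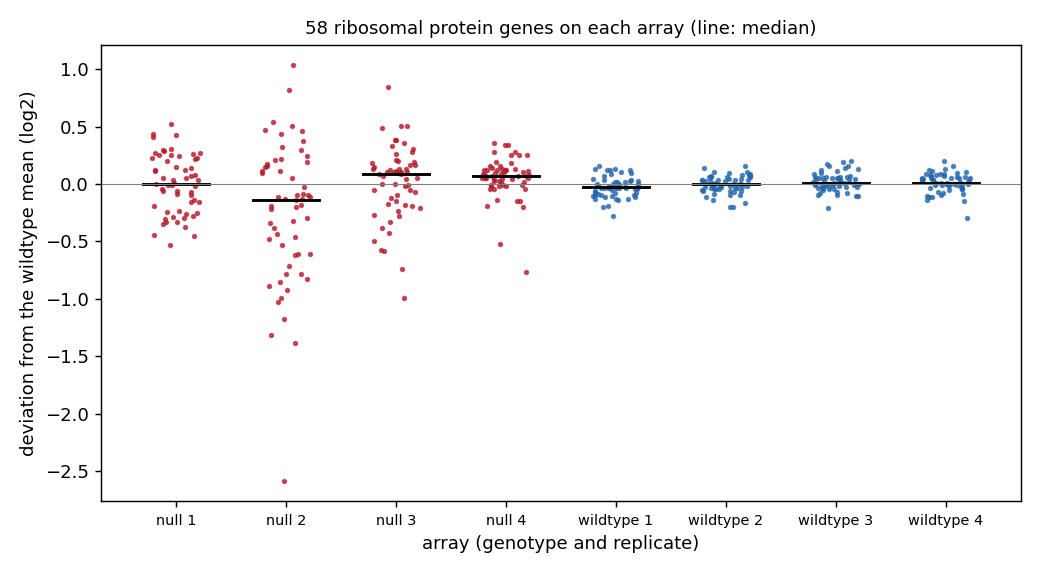
Deviation of each of the 58 ribosomal protein genes from its wildtype mean (log2, vertical) on each array (horizontal), Bapx1 null arrays left in red and wildtype arrays right in blue, with a line at the median. The points of Bapx1 null replicate 2 reach from -2.58 to 1.03, and those of each wildtype array stay between -0.30 and 0.20.

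Because most members sat among the 979 brightest genes, and scalings moved the median of all genes, their direction was read relative to all genes. Quantile normalization gave a median difference of -0.06 for the members, 0.14 below that of all genes, and for the 979 brightest genes as a whole a median of 0.03. Cyclic loess gave -0.13, 0.15 below all genes (17 members above zero and 41 below). The other scalings moved all genes together. Without normalization the median was -0.43 for the members and -0.45 for all genes (3 above and 55 below), with array medians subtracted -0.24 and -0.26 (8 and 50), with the authors' processed values -0.30 and -0.25 (7 and 51), and with the 75th percentile of each array as scale 0.21 and 0.19 (48 and 10). MAD scaling gave 2.86 and 1.05 (57 and 1). Relative to all genes the members therefore stood at 0.02 under 3 of these scalings, at -0.05 with the authors' values and at 1.81 under MAD scaling, and the sign of the shift depended on the scaling chosen. Without Bapx1 null replicate 2 the members' median was 0.02 (32 above zero and 26 below) and that of all genes 0.05, so that the members stood 0.03 below all genes.

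**Figure D5:**
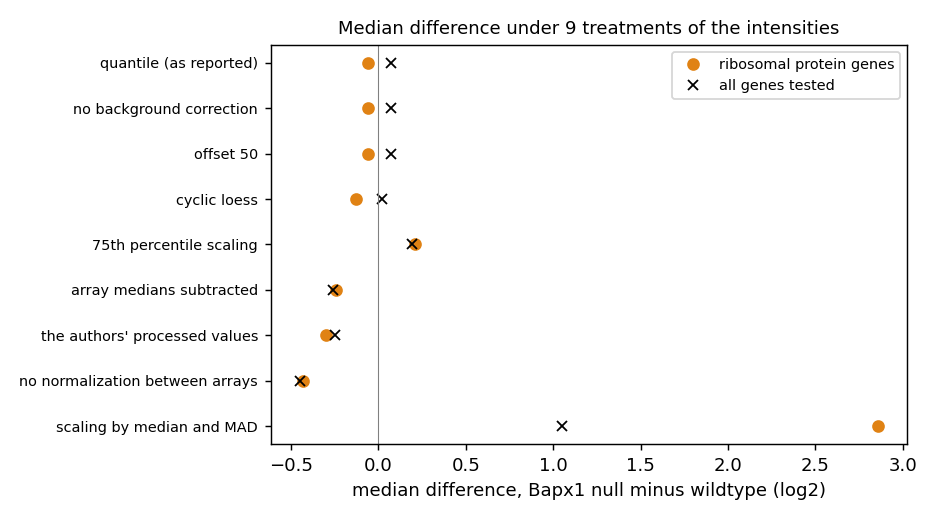
Median log2 difference, Bapx1 null minus wildtype (horizontal), of the 58 ribosomal protein genes (filled circles) and of all genes tested (crosses) under 9 treatments of the intensities (vertical). The pair of marks moves together from -0.45 to 0.21 under 8 treatments, apart by at most 0.15, and separates under MAD scaling (2.86 and 1.05).

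Other genes of the translation machinery were taken from lists. Of the 19 measured elongation factors and other genes with TOP mRNAs, 0 passed by limma (4 at an unadjusted p under 0.05, all lower, or 21.1%, against 27% of all genes in either direction and 9.73% lower). Below zero lay 15 of the 19, where 4188 of all 9784 genes did. Their median difference was -0.44, against -0.06 for the ribosomal protein genes and 0.07 for all genes. The farthest was Cct2, a chaperonin subunit, at -1.23, which was detected on 3 of the 4 Bapx1 null arrays. Its normalized signal was 4.58 on Bapx1 null replicate 2 and 6.32, 6.39 and 7.44 on replicates 1, 3 and 4. Vim, the intermediate filament of mesenchyme, followed at -0.77, and Eif2s3x, the X-linked gamma subunit of the initiator tRNA factor, at -0.76. Hnrnpa1, an RNA-binding protein, differed by -0.69. The mean signal of the list was 11.91, 11.31, 11.53 and 12.10 on the Bapx1 null arrays, against 12.08 to 12.10 on the wildtype arrays. The order of the Bapx1 null arrays was that of Rps6 and Rps7, with replicate 4 level with wildtype and replicate 2 lowest. MAD scaling turned Vim, Eif2s3x and Hnrnpa1 to the other side of zero, and the covariate turned Cct2. With the covariate the median of the list was -0.02 (all genes 0.02), and without Bapx1 null replicate 2 it was -0.20 (all genes 0.05). It was -0.65 with the authors' processed values (all genes -0.25) and 2.18 under MAD scaling (all genes 1.05).

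Of 17 measured regulators of ribosomal protein synthesis, from mTORC1, its targets and Myc-related factors, 1 passed (0.787% of all genes did), and 9 (52.9%) had an unadjusted p under 0.05 by limma, 3 higher and 6 lower in Bapx1 null, against 27% of all genes. Eif4e, the cap-binding factor that mTORC1 frees from its inhibitors, had 7.08, 5.23, 7.07 and 6.38 in Bapx1 null and 8.56, 8.06, 8.53 and 8.44 in wildtype. All Bapx1 null arrays were lower, 3 of the 4 with a detected signal, at a difference of -1.96 ± 0.37 (SE; limma, adjusted p = 0.0495). The call was lost without any one of the 4 wildtype arrays (adjusted p from 0.117 to 0.153), without Bapx1 null replicate 3 (adjusted p = 0.099), with the authors' processed values (0.0671), array medians subtracted (0.0746), MAD scaling (0.0896), no filter on dim probes (0.107), ordinary least squares (0.175) and the covariate (0.281), while the difference stayed between -2.41 and -1.23. Larp4, an RNA-binding protein of the La family detected on 2 of the 4 Bapx1 null arrays, differed by -1.56 without passing. The transcription factors Gabpa, an ETS factor, and Yy1 differed by -1.33 and -1.01, also without passing. Neither Gabpa nor Yy1 was detected on all 8 arrays. For Fau and Rack1, ribosomal proteins whose symbols the rule misses, no probe was kept.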

How the data were processed

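Total RNA of EGFP-sorted E12.5 gut cells (4 Bapx1 null and 4 wildtype biological replicates, per the methods) was hybridized to 8 single-colour Illumina arrays. P-values measure the spread between these samples. The authors deposited raw signal intensity per probe, exported with GenomeStudio (version not given in the sources used here), lowest value 29.8, with no background subtraction or normalization. The fraction the authors deposited as detection p approached 1 for bright probes (Spearman correlation with intensity at least 0.976) and was taken as 1 minus p. The processed log2 values the authors deposited equal log2 intensity minus the array median (column medians -0.0112 to 0.0145) and minus a constant per probe, whose basis is unknown. The background subtraction and MAD scaling of the methods were not found in them. Rows of both tables (45281) were joined on differences between arrays, to within 1.84e-06 log2, the closest competing row lying at 0.00905. The platform annotation gave 34885 probes 1 symbol and 18 several, and left 10378 unnamed. RefSeq (GRCm38.p6) altered 0 symbols and did not cover 78 probes.

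Intensities were corrected with limma 3.58.1 in R 4.3.3 (nec, offset 16, parameters inferred from detection p), log2 transformed and then quantile normalized. Of several kept probes, the one with the highest mean signal stood for a gene. Bapx1 null was set against wildtype with lmFit and eBayes, two-sided, with Benjamini-Hochberg adjustment over all genes (or probes) and a threshold of 0.05. This replaces the ANOVA of the methods, whose unmoderated form was an alternative. SE denotes the standard error of the model, and group means carry the SD. The number of arrays limits the precision. Alternatives changed background correction, offset, normalization, filter, probe choice, test, array weights, covariate, replicate block and the arrays used.

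The members, gene lists and tests were chosen with earlier results of these data known. Genes named with values are the 5 highest and 5 lowest differences, the 3 brightest and 3 dimmest genes, the 3 with the widest probe spread, paralog pairs, stalk genes, genes with known mouse or human phenotypes, and in other lists any gene past the threshold with the 4 largest differences. Rps24, Rpl28, Rpl37 and the genes with no kept probe were added after their values were seen. Sequences are from RefSeq, GRCm38.p6, read with Python 3.11.15.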

Additional observations from a re-analysis of the deposited data

Results flagged for a closer look

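Of 68 groups of 4 arrays checked, 2 held an array far from the rest of its genotype, where chance flags about 5% of groups. Rpl19 had a normalized log2 signal of 12.32 on Bapx1 null replicate 2, against 12.05 to 12.09 on the other Bapx1 null arrays. Rps29 had 14.96 on wildtype replicate 4, against 14.82 to 14.84 on the other wildtype arrays. No explanation was tested for either.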

How the results depend on the processing

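Of the ribosomal protein genes, 0 passed under each alternative run except without Bapx1 null replicate 4 (limma; 0 to 3 when 1 array was left out). The probe count was 1, the dim Rplp0 probe, without normalization, with cyclic loess, the 75th percentile, no background correction, offset 50 and a detection p under 0.05, and 0 to 4 when 1 array was left out. The median difference of -0.06 moved by more than the SD of array medians (0.21) to -0.30 with the authors' processed values, -0.43 without normalization, 2.86 with MAD scaling and 0.21 with the 75th percentile, and was -0.08 to 0.02 when 1 array was left out. In the other translation and ribosome lists, run after the data were seen, the count of 1 became 0 with the authors' values, array medians subtracted, MAD scaling, detection on all 8 arrays, no filter, ordinary least squares and the covariate, 2 with array weights, and 0 to 20 when 1 array was left out. The causes of these changes were not tested.

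Replicate numbers did not pair the samples: deviations of same-numbered arrays correlated at 0.15, -0.18, -0.06 and -0.14. With the replicate number as a block, 0 genes and 0 probes of the set passed, the median was -0.06, and 51 of all genes passed, against 77.

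Differences that turned sign, each without passing the threshold, were as follows. The median of all genes moved too, to -0.25 with the authors' values, -0.45 without normalization and -0.26 with subtracted medians. It was 1.05 with MAD scaling and 0.19 with the 75th percentile. A turned sign therefore need not be a turn relative to all genes, as for Rps15a at 0.81 under MAD scaling. The authors' values gave Rpl22 -0.11, Rpl24 -0.34, Rpl38 -0.03, Rpl41 -0.15, Rpl7l1 -0.07, Rplp0 -0.10, Rplp2 -0.23, Rps19bp1 -0.16, Rps27l -0.16, Rps29 -0.14 and Rps4x -0.24. No normalization gave Rpl22 -0.24, Rpl24 -0.52, Rpl38 -0.16, Rpl41 -0.28, Rpl7l1 -0.21, Rplp0 -0.23, Rplp1 -0.02, Rplp2 -0.36, Rps15 -0.02, Rps19 -0.09, Rps19bp1 -0.36, Rps27l -0.29, Rps29 -0.27, Rps4x -0.37, Bbc3 -0.08 and Aen -0.08. Subtracted medians gave Rpl22 -0.05, Rpl24 -0.33, Rpl41 -0.09, Rpl7l1 -0.02, Rplp0 -0.04, Rplp2 -0.17, Rps19bp1 -0.17, Rps27l -0.10, Rps29 -0.08 and Rps4x -0.18, and cyclic loess Rpl24 -0.0024, Rpl41 -0.07, Rplp2 -0.10, Rps29 -0.06 and Rps4x -0.12. MAD scaling gave Rpl22l1 1.04, Rpl29 2.82, Rpl3 3.35, Rpl36a 2.55, Rpl36al 2.31, Rpl39 3.02, Rps13 2.82, Rps15a 0.81, Rps20 0.12, Rps3a1 1.02, Rps4l 0.60, Rps6 1.83, Rps7 1.78, Vim 0.49, Eif2s3x 1.22, Hnrnpa1 2.16, Taf1d 0.06, Nop56 0.35, Trp53inp1 0.15 and Mrps15 0.64. The 75th percentile gave Rpl29 0.15, Rpl3 0.20, Rpl36a 0.08, Rpl36al 0.14, Rpl39 0.01 and Rps13 0.16. The covariate gave Rpl22l1 0.39, Rpl29 0.41, Rpl3 0.06, Rpl36a 0.27, Rpl39 0.10, Rps20 0.04, Rps27l -0.01, Rps3a1 0.27, Rps4x -0.02, Rps7 0.07, Cct2 0.02, Ddx10 0.30, Gabpa 0.11, Yy1 0.06, Aen -0.10 and Mrps15 0.22. The mean of all probes gave Rplp0 -0.97, array weights Rpl29 0.17, and leaving out Bapx1 null replicates 2 and 3 Rpl29 0.25. With 1 array left out, Rpl29 ran from -0.23 to 0.15, Rpl3 from -0.13 to 0.01, Rpl41 from -0.03 to 0.09, Rplp2 from -0.04 to 0.12 and Rps4x from -0.06 to 0.12. Signal over background limits the dim probes, such as those of Rpl29 and Rps13 that were detected on 3 of 4 Bapx1 null arrays.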

Other observations

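Mitochondrial ribosomal protein genes (Mrpl and Mrps), whose products build the separate ribosome of the mitochondrion, are a list apart from the cytosolic set. Of 72 measured genes 0 passed by limma (7 at an unadjusted p under 0.05, or 9.72%, against 27% of all genes), 48 lay above zero and 24 below, where 5596 of all 9784 genes lay above zero, and the median difference was 0.14, against 0.07 for all genes. The sign of the median depended on the scaling: it was -0.21 with the authors' processed values and -0.35 without normalization, against -0.25 and -0.45 for all genes. The farthest were Mrpl58, a peptide release factor of the mitochondrial ribosome, at 0.69, Mrps18a at 0.60, Mrpl2 at 0.53 and Mrps15 at -0.48. Mrpl58 had 8.53, 9.23, 8.80 and 8.23 in Bapx1 null and 7.88, 7.95, 8.16 and 8.04 in wildtype, with Bapx1 null replicate 2 the highest.

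Of 57 measured ribosome assembly genes 0 passed by limma (8 at an unadjusted p under 0.05, or 14%, 6 of them lower, against 27% of all genes in either direction and 9.73% lower). The median difference was -0.10, with 35 genes below zero, where 4188 of all 9784 genes lay below zero. With the covariate that median was -0.03 (all genes 0.02), with the authors' processed values -0.45 (all genes -0.25). Taf1d, of the RNA polymerase I factor SL1, differed by -0.92 and Nop56, a core protein of box C/D snoRNPs, by -0.77. The helicase gene Ddx10, detected on 3 of the 4 Bapx1 null arrays, differed by -0.75. Nmd3, the export adaptor of the large subunit, differed by 0.69. Of 14 measured p53 targets, which respond when ribosome assembly fails, 0 passed by limma (3 at an unadjusted p under 0.05, or 21.4%, against 27% of all genes), 7 lay above zero and 7 below, and the median was -0.01. Cdkn1a, a cell cycle inhibitor, was not above background on any Bapx1 null array and was detected on the 4 wildtype arrays, through which alone it was kept. Trp53inp1 differed by -0.70, Bbc3 by 0.56 and Aen, which was not detected on all 8 arrays, by 0.50.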
